A study of Mus musculus with 2 samples.

Results

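The imprinted miRNA genes outside the Dlk1-Dio3 cluster were taken as Mir335 (Mest locus), Mir296 and Mir298 (Gnas region), Mir483 (Igf2 locus) and Mir675 (H19 locus), chosen by name. They are 5 of the 2202 miRNA genes of GENCODE release M21 in the tables. Counts came from 2 microRNA sequencing libraries of total RNA, with fragments below 30 nt by the labels' size range, prepared from left cerebral cortex of 5xFAD/CAST mice, all adult females of 8 to 10 months. 5xFAD is a transgenic model in which neuronal expression of mutant human amyloid precursor protein and presenilin leads to amyloid plaques, and CAST is an inbred strain derived from Mus musculus castaneus. Both libraries, replicate 1 and replicate 2, belong to 1 group with the same strain label. Their tissue samples differ but their donor entry is shared, and whether separate animals were used is not stated in the labels. No mice without the transgenes were analysed here, so the levels describe this cortex and cannot be set against another genotype.

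Imprinted genes are expressed from only the maternal or only the paternal chromosome, and a miRNA hairpin cut from an imprinted transcript generally follows its host. Mest and Igf2 are expressed from the paternal allele and H19 from the maternal allele in most mouse tissues. Mir296 and Mir298 have been linked in mouse to the paternally expressed antisense transcript Nespas at the Gnas locus. Igf2 and H19 are growth-related genes of fetal tissues that are largely shut down after birth, although in the brain Igf2 persists in the choroid plexus and meninges. The counts do not separate alleles, so imprinting itself was not measured.

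Each hairpin gives a mature miRNA from its 5p arm and another from its 3p arm. The 10 mature sequences of the 5 hairpins, from RefSeq on GRCm38.p6, are shown because the seed (bases 2 to 8, in capitals) sets which messages a miRNA can bind.
miR-335-5p: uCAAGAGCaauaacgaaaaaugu
miR-335-3p: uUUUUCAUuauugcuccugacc
miR-298-5p: gGCAGAGGagggcuguucuuccc
miR-298-3p: gAGGAACUagccuucucucagcuu
miR-296-5p: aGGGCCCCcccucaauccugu
miR-296-3p: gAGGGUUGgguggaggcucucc
miR-483-5p: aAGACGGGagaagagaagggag
miR-483-3p: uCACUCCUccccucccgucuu
miR-675-5p: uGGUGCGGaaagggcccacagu
miR-675-3p: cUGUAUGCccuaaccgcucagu

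No seed occurred in more than 1 of these 10 sequences, and none was shared with another gene's sequence among the 1738 mature miRNAs of the RefSeq table. No stretch of 18 bases from these arms, on either strand, occurred in an M21 transcript of a gene elsewhere in the genome. The whole genome sequence was not searched here. A count of a hairpin gene is the sum of its arms, so the share of each arm is unknown.

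The libraries held 5162369 counts on the strand of miRNA genes in replicate 2 and 4226300 in replicate 1. All levels are in CPM, the usual scaling of counts to these totals. A read spans a whole mature miRNA, so counts were compared between hairpins without division by length. Of the neuron markers Mir132 stood at 21189 CPM in replicate 2 and 40577 CPM in replicate 1, and Mir137 at 5769 CPM in replicate 2 and 6008 CPM in replicate 1. Of 9 neuron markers, 6 were detected, and the list took 4.36% of the counts in replicate 2 and 6.92% in replicate 1. Mir132 and Mir128-1 (3687 CPM in replicate 2 and 9000 CPM in replicate 1) carried most of that gap, while Mir138-1 went the other way, at 4820 CPM in replicate 2 and 4244 CPM in replicate 1. The multi-locus Mir124a hairpins were near 0, and reads that map to several places lie outside these counts.

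Of the 5 genes, 4 were detected, meaning at 10 CPM or more in both libraries, against 309 of all 2202 miRNA genes (14.0%). Their order was Mir335, Mir298, Mir296, Mir483 and Mir675. The ranges of neighbours in that order did not overlap between the libraries, and the order was the same per base of hairpin. Together the 5 genes took 0.881% of the counts in replicate 2 and 0.769% in replicate 1. Mir335 alone held 71.7% of the summed counts of the 5 genes in replicate 2 and 62.5% in replicate 1.

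**Figure D1:**
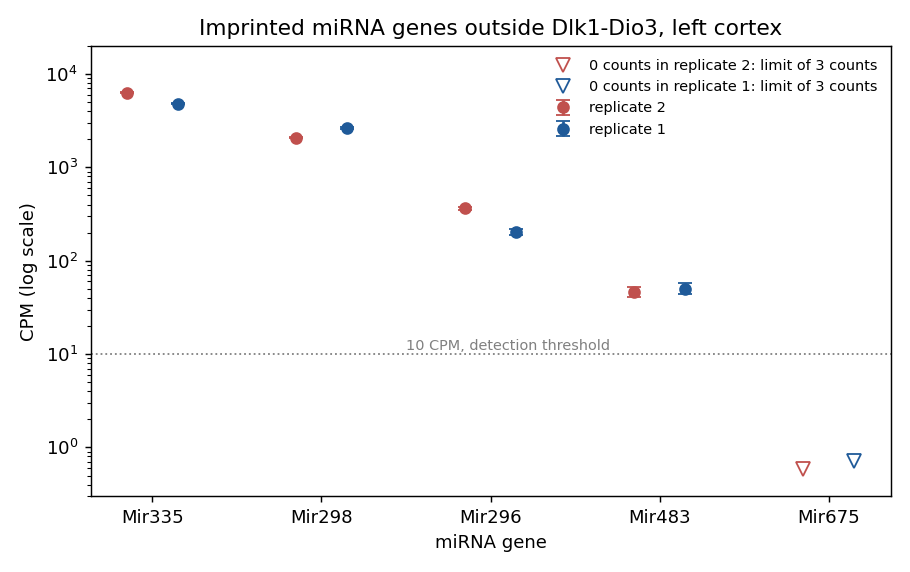
CPM on a log axis of each of the 5 genes in replicate 2 (red, left) and replicate 1 (blue, right). Points are CPM with exact Poisson 95% intervals, open triangles mark the limit that a count of 0 allows (3 counts), and the dotted line is the detection threshold of 10 CPM. The 4 detected genes descend from Mir335 at 4803 to 6320 CPM to Mir483 at 46.1 to 50.2 CPM, and Mir675 had no count.

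Mir335 (ENSMUSG00000065501.1) lies on the plus strand of chromosome 6 from 30741299 to 30741396 (mm10), in an intron of Mest, which encodes a membrane protein of the alpha/beta-hydrolase fold and is a textbook imprinted gene. It is intron 2 or intron 3 in the protein-coding Mest transcripts that span the hairpin. In human cells miR-335 is known as a suppressor of breast cancer metastasis. Mir335 had 32625 counts in replicate 2 and 20300 in replicate 1. These are 6320 CPM (exact Poisson 95% interval 6251 to 6389) in replicate 2 and 4803 CPM (4737 to 4870) in replicate 1, or 5562 CPM ± 1072 (SD, n = 2). It was the 32nd most abundant miRNA gene in replicate 2 and the 39th in replicate 1. This rank and those given below leave out reads that map to several places, so genes with near copies may stand too low. Replicate 2 was higher than replicate 1 and the counting intervals did not overlap. Its opposite strand was counted 0 times in replicate 2 and 1 time in replicate 1.

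Mir298 (ENSMUSG00000065410.1) and Mir296 (ENSMUSG00000065521.1) lie on the minus strand of chromosome 2, from 174267504 to 174267585 and from 174267047 to 174267125. M21 places both outside any host gene on their strand. Mir298 lies 13.7 kb beyond the annotated end of Nespas, a non-coding transcript read in the same direction from within Gnas. The hairpins are 378 bases apart, with Mir298 upstream. The pair is printed because 2 neighbouring hairpins differed in level and in direction between the libraries. Mature arms are in capitals, 5p first.
Mir298: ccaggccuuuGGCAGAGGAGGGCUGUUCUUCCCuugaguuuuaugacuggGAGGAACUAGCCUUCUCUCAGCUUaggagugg
Mir296: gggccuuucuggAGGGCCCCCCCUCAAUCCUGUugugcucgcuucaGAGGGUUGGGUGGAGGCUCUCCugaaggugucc

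Mir298, reported in mouse to repress the beta-secretase Bace1, was the second most abundant of the 5 genes. It had 10732 counts in replicate 2 and 11128 in replicate 1, which are 2079 CPM (95% interval 2040 to 2119) in replicate 2 and 2633 CPM (2584 to 2682) in replicate 1. The mean was 2356 CPM ± 392 (SD, n = 2), at rank 63 in replicate 2 and rank 57 in replicate 1. Replicate 2 was the lower library, again with counting intervals that did not overlap. Mir296, known in human endothelium for promoting blood vessel growth, had 1880 counts in replicate 2 and 863 in replicate 1. Its levels were 364 CPM (348 to 381) in replicate 2 and 204 CPM (191 to 218) in replicate 1, or 284 ± 113 CPM. Replicate 2 was the higher library for Mir296, opposite to its neighbour, and the counting intervals did not overlap.

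Mir483 (ENSMUSG00000070140.1) lies on the minus strand of chromosome 7 from 142654924 to 142654996, in intron 2 of most spanning Igf2 transcripts. Igf2 encodes a fetal growth factor, and in human tumours miR-483-3p is raised together with IGF2. The gene also lies in an intron of Gm49394, which overlaps Igf2. Mir483 had 238 counts in replicate 2 and 212 in replicate 1. These are 46.1 CPM (40.4 to 52.4) in replicate 2 and 50.2 CPM (43.6 to 57.4) in replicate 1, or 48.1 ± 2.87 CPM, with intervals that overlap. Mir483 was the only one of the 4 detected genes whose intervals overlapped. It also had the fewest counts of the 4, so its intervals are the widest for its level.

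Mir675 (ENSMUSG00000076275.1) lies 77.8 kb from Mir483 on the same strand, from 142577064 to 142577147, in an exon of H19, namely exon 1 of the 5-exon transcripts, although 1 shorter transcript has it in an intron. It restrains growth of the mouse placenta. No read was counted on it in either library, on its own strand or the opposite one. A count of 0 allows up to 0.581 CPM in replicate 2 and 0.710 CPM in replicate 1, taking 3 counts as the limit per library. Over both libraries the 450 counts of Mir483 were 150.0-fold the 3 counts taken as the limit for Mir675 over the group. This ratio takes the 450 counts as exact, so it is not a lower bound with counting error on both sides. In all, 1427 of the 2202 miRNA genes (64.8%) had no count in either library. These limits cover counting error only, since reads are not shown to be independent molecules.

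**Figure D2:**
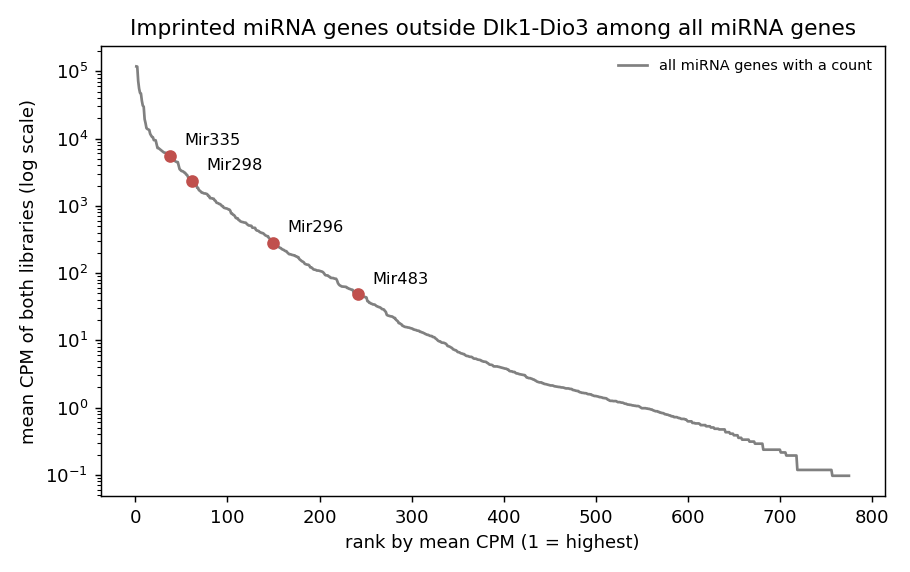
Mean CPM over both libraries (log axis) against rank for every miRNA gene with a count (grey line), with the 4 detected genes as red points. Mir335 stands at rank 38, Mir298 at 61, Mir296 at 149 and Mir483 at 242 by mean CPM, and Mir675 is not on the curve. Reads that map to several places are not counted in these ranks.

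The comparison of replicate 2 with replicate 1 asks how far the 2 libraries differ, and not what a condition does. A two-sided exact binomial test against scaled library sizes, which allows for counting error alone, was run on every gene whose summed counts reached 10. Of the 5 genes, 4 could be tested, and Mir675 could not. In that test 58.8% of the 546 tested genes were called at an adjusted p of 0.05, 24.5% as higher in replicate 2 and 34.2% as higher in replicate 1. Of the 4 tested genes, 3 were called, Mir335 and Mir296 as higher in replicate 2 and Mir298 as lower. Calls in this test follow depth. When only the 326 genes with at least 100 summed counts were tested, which include these 4, 258 were called. The median log2 ratio of the 4 tested genes was 0.11, against -0.07 over all tested genes.

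Mir335 was 1.29-fold higher in replicate 2 (log2 ratio 0.36, exact 95% interval 0.34 to 0.39, adjusted p = 7.38e-178, exact binomial test). Mir296 was 1.75-fold higher in replicate 2 (log2 ratio 0.80, 0.69 to 0.92, adjusted p = 2.56e-43, exact binomial test). Mir298 had a log2 ratio of -0.37 (-0.41 to -0.33, adjusted p = 5.69e-80, exact binomial test), which is 1.29-fold higher in replicate 1. For Mir483 the log2 ratio was -0.15 (-0.43 to 0.12, adjusted p = 0.369, exact binomial test), so a difference was not detectable at its depth. Of all tested genes, 62.6% had an absolute log2 ratio as large as that of Mir335, 61.9% as large as Mir298 and 33.5% as large as Mir296. These shares include genes with as few as 10 summed counts, where counting error is wider. The median absolute log2 ratio was 0.50 over all tested genes and 0.37 over the 204 at 100 CPM or more. Mir335 and Mir298 lay close to the latter median and Mir296 above it.

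With a spread between libraries allowed for, fewer calls were left. An edgeR exact test at a fixed biological coefficient of variation (BCV) of 0.1 called 28.8% of the tested genes. In that test Mir296 passed (adjusted p = 0.00131), whereas Mir335 (0.170) and Mir298 (0.163) did not. The value of 0.1 was assumed and not measured, so passing does not show a difference beyond the spread between animals. At the BCV of 0.481 estimated from these libraries 1.10% of the genes were called, none of them among the 5 genes. The estimate comes from the same 2 libraries that the test compares. Their difference thus sets the spread it is judged against, so the lack of calls says nothing about the 5 genes.

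**Figure D3:**
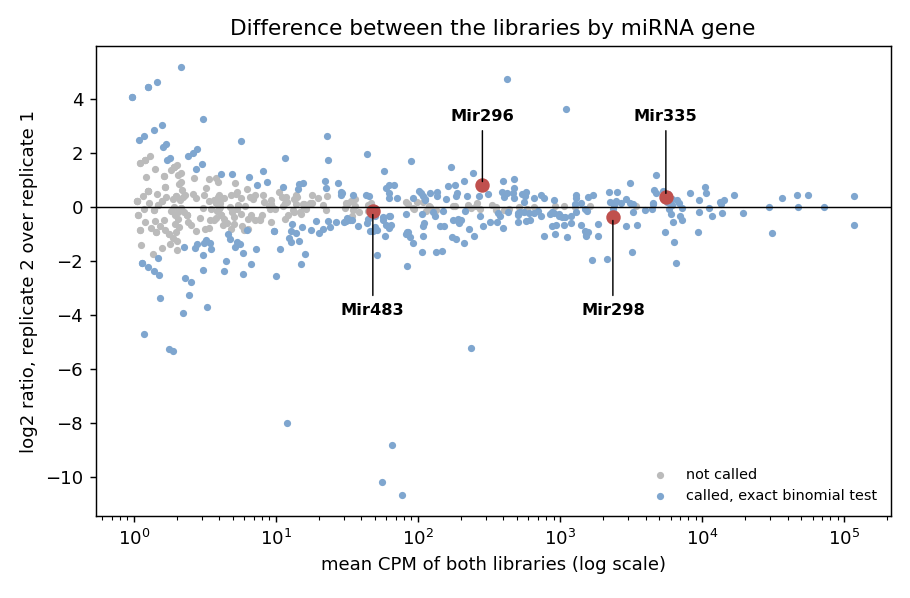
Log2 ratio of replicate 2 over replicate 1 against mean CPM (log axis) for the 546 tested miRNA genes, in blue where called by the exact binomial test and grey where not. The 4 tested genes, in red, lie between -0.37 (Mir298) and 0.80 (Mir296), inside the cloud of the other genes.

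Mir296 and Mir298 differed from each other far more in level than either did between libraries. Mir298 had 5.71 times the counts of Mir296 in replicate 2 and 12.9 times in replicate 1. Mir296 made up 14.9% of the counts of the pair in replicate 2 (Wilson 95% interval 14.3 to 15.5) and 7.20% in replicate 1 (6.75 to 7.67). The log2 ratio of Mir296 to Mir298 was 1.18 higher in replicate 2 than in replicate 1 (two-sided Fisher's exact test, p = 4.63e-84, counting error only). As background, 65 pairs of neighbouring hairpins on 1 strand within 1000 bases of each other were measured in the same way, with both genes tested. Their median absolute difference was 0.68, and 14 pairs (21.5%), Mir296 and Mir298 included, lay at least as far apart. In 17 of the 65 pairs (26.2%) both genes were called in opposite directions, as here. Hairpin GC content was 63.3% for Mir296, 53.7% for Mir298, 42.9% for Mir335 and 58.9% for Mir483, beside a median of 53.0% over tested genes. Across the 546 genes, which are not independent replicates and share the same libraries, Pearson's r between GC content and log2 ratio was -0.02 and Spearman's rho was -0.08.

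**Figure D4:**
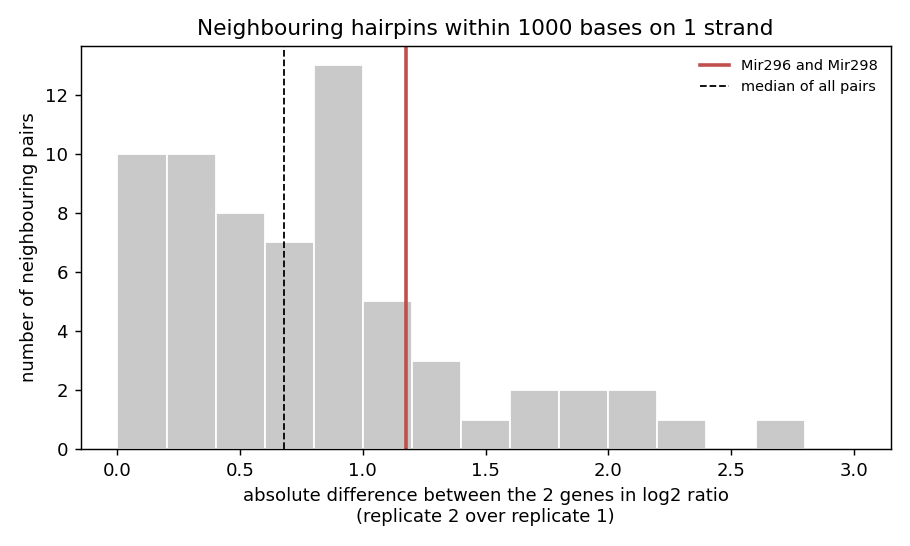
Histogram of the absolute difference in log2 ratio (replicate 2 over replicate 1) between the genes of 65 neighbouring hairpin pairs. The red line marks Mir296 and Mir298 at 1.18, right of the dashed median of 0.68, with 14 pairs at or beyond it.

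By pattern over the 2 libraries, the genes nearest to Mir335 on the log2 CPM scale were Mir379 (6808 CPM in replicate 2 and 4796 CPM in replicate 1) and Mir143 (6036 CPM in replicate 2 and 5276 CPM in replicate 1). Nearest to Mir298 was Mir187, at 2011 CPM in replicate 2 and 2510 CPM in replicate 1, followed by Mir676 at 2289 CPM in replicate 2 and 2396 CPM in replicate 1. Mir296 was nearest to Mir376c, at 311 CPM in replicate 2 and 231 CPM in replicate 1, and to Mir30c-2, at 369 CPM in replicate 2 and 257 CPM in replicate 1. For Mir483 the nearest were Mir1188, at 44.6 CPM in replicate 2 and 54.7 CPM in replicate 1, and Mir449a, at 42.0 CPM in replicate 2 and 46.4 CPM in replicate 1. Mir379, Mir376c and Mir1188 lie on chromosome 12, and Mir143 and Mir187 on chromosome 18. Mir30c-2 lies on chromosome 1, Mir676 on the X chromosome and Mir449a on chromosome 13. With 2 values per gene, this measure is closeness in abundance and not a correlation.

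Other imprinted miRNA loci bracketed these levels. Of the 67 miRNA genes between Dlk1 and Dio3, 48 were detected, and they took 12.2% of the counts in replicate 2 and 10.6% in replicate 1. Their most abundant gene, Mir127, stood at 40736 CPM in replicate 2 and 31984 CPM in replicate 1. Among those 67 genes, 7 were above Mir335, 9 above Mir298, 27 above Mir296 and 42 above Mir483 by mean CPM. Of 53 tested there, the exact binomial test put 17 higher in replicate 2 and 23 lower, with a median log2 ratio of -0.13. Over all 546 tested genes it put 134 higher (24.5%) and 187 lower (34.2%), with a median of -0.07. The larger share called there goes with greater depth, at a median of 365 CPM over its tested genes against 23.7 CPM over all. Of 119 miRNA genes inside Sfmbt2, an imprinted host of repeated hairpins, 7 were detected and 102 had no count, and the leading gene, Mir467d, stood at 500 CPM in replicate 2 and 341 CPM in replicate 1. These hairpins resemble each other, and reads that map to several places are outside the counts. Mir184, near the imprinted gene Rasgrf1, stood at 125 CPM in replicate 2 and 99.4 CPM in replicate 1, between Mir296 and Mir483.

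Igf2 in the brain is known from the choroid plexus and the meninges, so markers of those tissues are given beside Mir483. The 10 markers of choroid plexus and ependyma took 0.169% of the counts in replicate 2 and 0.101% in replicate 1, with 8 counted in both libraries. Mir204 led them at 667 CPM in replicate 2 and 475 CPM in replicate 1, and with Mir34c and Mir1298 it carried the share. Mir211 (37.0 CPM in replicate 2 and 65.5 CPM in replicate 1) and Mir449a were lower in replicate 2. Of the 4 markers of meninges and fibroblasts, Mir214 was counted at 27.9 CPM in replicate 2 and 38.3 CPM in replicate 1, and Mir199a-1, Mir199a-2 and Mir199b were at 0 in at least 1 library. Reads that map to several places are outside the counts, so these values of 0 do not show that the tissue is absent. The 3 blood markers took 0.0887% in replicate 2 and 0.00724% in replicate 1. Mir451a carried that gap, at 821 CPM in replicate 2 and 30.05 CPM in replicate 1, whereas Mir486 stood at 26.0 CPM in replicate 2 and 36.2 CPM in replicate 1. With the unstranded column the mean blood share was 0.00247%, against 0.0480% on the gene's strand. The 3 endothelial and mural markers took 1.93% in replicate 2 and 1.33% in replicate 1. Mir126a carried most of that gap, at 13122 CPM in replicate 2 and 7756 CPM in replicate 1. Mir145a went the other way, at 169 CPM in replicate 2 and 235 CPM in replicate 1. The astrocyte list took 2.88% in replicate 2 and 3.38% in replicate 1, the oligodendrocyte list 0.533% in replicate 2 and 0.709% in replicate 1, and the microglia list 0.0288% in replicate 2 and 0.0262% in replicate 1. Mir9-2 and Mir9-3 went against the astrocyte list, and Mir223 against the microglia list. The part of any of these tissues in the levels of the 5 genes was not tested. In tissue, fewer cells of a type and less RNA per cell cannot be told apart.

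Seed matches were looked up in 3' untranslated regions of 3 messages linked to these miRNAs in the literature, Bace1 and Igf1r from mouse work and App from human cells. The sense strand of the longest region per gene in M21 was searched. The match to miR-298-5p, CCTCTGC, occurred at 2 places in the region of Bace1, on chromosome 9, and that to miR-298-3p, AGTTCCT, at none. Bace1 encodes the protease that makes the first cut towards amyloid beta. The sites are shown on the sense strand with the match in capitals.
Bace1 site at base 292: agcttcagccctgacCCTCTGCc
Bace1 site at base 1095: gggctgatgcatttgCCTCTGCc
Among 1493 genes whose region was 80% to 120% as long, 46.1% held CCTCTGC and 34.6% held AGTTCCT. The region of App, which encodes the precursor of amyloid beta, held neither match, whereas 51.0% of 735 regions of like length held CCTCTGC and 44.4% held AGTTCCT. The match to miR-675-3p, GCATACA, occurred at 2 places in the region of Igf1r, a growth factor receptor gene, where 37.2% of 376 regions of like length held it, and that to miR-675-5p, CCGCACC, at none, where 5.85% held it. Mouse seeds were searched in mouse regions, so the App link from human cells was not examined. A match is a description of letters only, and no target was measured here.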

How the data were processed

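The authors deposited raw read counts per miRNA gene for each library, on mm10 with GENCODE M21 per the records accompanying the files, with replicates not pooled. For the aligner, counter and trimming, names are not given in the sources used. Column 3, counts on the gene's strand, was the main measure. The 4 rows naming no gene (67.6% of reads in replicate 2, 67.4% in replicate 1) stayed out of library sizes and tests. They hold reads mapping to several places, so hairpins with near copies lose counts, and CAST reads that differ from the reference may map less well.

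The 2 libraries form 1 group, and p-values concern only the difference between them, which may be technical. CPM, means ± SD and exact Poisson or Wilson 95% intervals were computed. Exact binomial tests (scipy 1.17.1) used TMM sizes from edgeR 4.0.16 on R 4.3.3, with Benjamini-Hochberg adjustment over 546 genes and 0.5 counts added per library for ratios. The BCV came from an intercept-only edgeR fit. DESeq2 1.42.0 gave alternative size factors. The script was tested on simulated data.

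Named genes were the 5 genes, the 2 tested genes nearest to each by log2(CPM + 0.5), the leading gene of each imprinted list, and markers. Members, lists and markers were chosen with earlier results of these data known. Alternatives were the unstranded column, other scalings, filters, denominators, added counts and tests, and each library alone. Neighbouring pairs and target messages were added after the data were seen.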

Additional observations from a re-analysis of the deposited data

Results flagged for a closer look

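Reads mapping to several places are not used in any level or test. They numbered 6290303 in replicate 2 and 5244644 in replicate 1. The files do not assign them to a gene. The opposite strand of the 5 genes held 1 count in all, below that limit.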

How the results depend on the processing

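No paired analysis was possible because the labels give 1 group. With all reads in the table as denominator, levels were 1805 CPM for Mir335, 765 for Mir298, 92.2 for Mir296 and 15.6 for Mir483, and the 5 genes took 0.268% of the reads. With the unstranded column Mir483 stood at 51.7 CPM, from the same counts over a smaller library total. The other detected genes rose with it, as Mir335 did to 5975 CPM. The log2 ratios of Mir335 (0.36, adjusted p = 0.170) and Mir298 (-0.37, 0.163) did not pass the edgeR exact test at a BCV of 0.1. At the estimated BCV neither did Mir296 (0.80), and the adjusted p was 1.00 for all 4 tested genes. The edgeR test allows for spread between libraries by construction. A BCV of 0.1 is an assumed spread, and the estimated BCV takes the spread from the compared libraries themselves. At a BCV of 0.1, 157 genes were called in place of 321. At 100 CPM, 3 of the 5 genes were detected in place of 4, since Mir483 fell below it. The mean share of the blood markers was 0.00247% with the unstranded column in place of 0.0480%. This shift comes from the choice of column, so the SD of 0.0576 between libraries does not measure it. The ratios of the 4 tested genes kept their direction and side of the threshold under DESeq2 size factors, total counts, the unstranded column and other added counts. Using a single library shifts each mean within its SD of necessity. The precision of Mir483 and the limit on Mir675 are set by depth.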
